A study of Arabidopsis thaliana with 6 samples.

Results

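The 32 genes described here belong to the sugar-starvation and amino acid catabolism response of Arabidopsis thaliana, and 19 of them had entries of their own in a table of 708 entries that compared roots of the hb13 mutant with wild-type roots. TPS9 was listed only in a row that it shares with another gene, AT1G23880. The members are a set of dark-inducible, dormancy-associated, inositol oxygenase, trehalose-phosphate synthase-like and amino acid breakdown genes. They were chosen by name after the fold changes of the same table had been seen, so the direction and size of their changes describe how they were picked and support nothing further. The other 12 have no value in the table, and whether they were unchanged, too low or untested cannot be told apart.

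Poly(A) RNA was sequenced from 3 hb13 libraries and 3 wild-type libraries, both in the Col-0 ecotype. Seedlings were 5 days old on standard medium, and roots were cut about 0.5 cm from the root tip. The labels name neither the hb13 allele nor the number of mutant lines, nor the light regime or sugar content of the medium. The mutated gene, HB13 (AT1G69780), codes for an HD-ZIP class I protein, a DNA-binding regulator with a homeodomain and a leucine zipper. It was itself no entry of the table, so the genotype labels could not be checked on its transcript. The authors' deposited table gives 1 expression value per genotype and gene, on a scale that is not named, with a q-value and no value per library. The spread between replicates, the read depth and any error on a single value are therefore unknown, and no test between genotypes could be run. Whether a difference exceeded the replicate spread rests on the authors' q-value, which was at most 0.05 for every entry. In a root sample of mixed cells, fewer cells of a type and less RNA per cell cannot be told apart.

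When sugar is short, plant cells activate the kinase SnRK1, which acts with bZIP transcription factors to slow growth and to switch on genes that recover energy from other stores. Amino acids then serve as fuel. Branched-chain amino acids, proline and others are oxidised in the mitochondrion, and the nitrogen they release is packed into asparagine, which carries much nitrogen for little carbon. Several of the genes were first found as dark-inducible (DIN) transcripts that rise in darkened leaves and are held down by supplied sugar. In roots, which import sugar from the shoot, the same genes are used as markers of carbon status.

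All 19 members with an entry of their own were lower in hb13 roots, where 44.4% of all 708 entries were lower. The deposited values put 14 of the 19 at or below 50% of the wild-type value in hb13, against 11.4% of all entries, and 16 of the 19 were lower with the smallest q-value in the table, 0.00246, against 22.6% of all entries. Because the members were picked with these directions known, nothing is read from those differences. The median log2 ratio of the hb13 value over the wild-type value was -1.22 for the 19 members, which is a median hb13 value of 42.9% of wild type. Over the 706 entries that have a ratio the median was 0.45, and over the 312 lower entries with a ratio it was -0.76. AT1G23052 and AT2G01422 had 0 in hb13 roots, so they have no ratio and were not ranked. The 312 lower entries with a ratio were sorted by it from the lowest. There, ASN1, MIOX4, DIN2 and SEN1 held ranks 3, 4, 5 and 8, and 15 of the 19 members were among the 100 lowest. At the other end, TPS8 ranked 269 of 312.

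**Figure D1:**
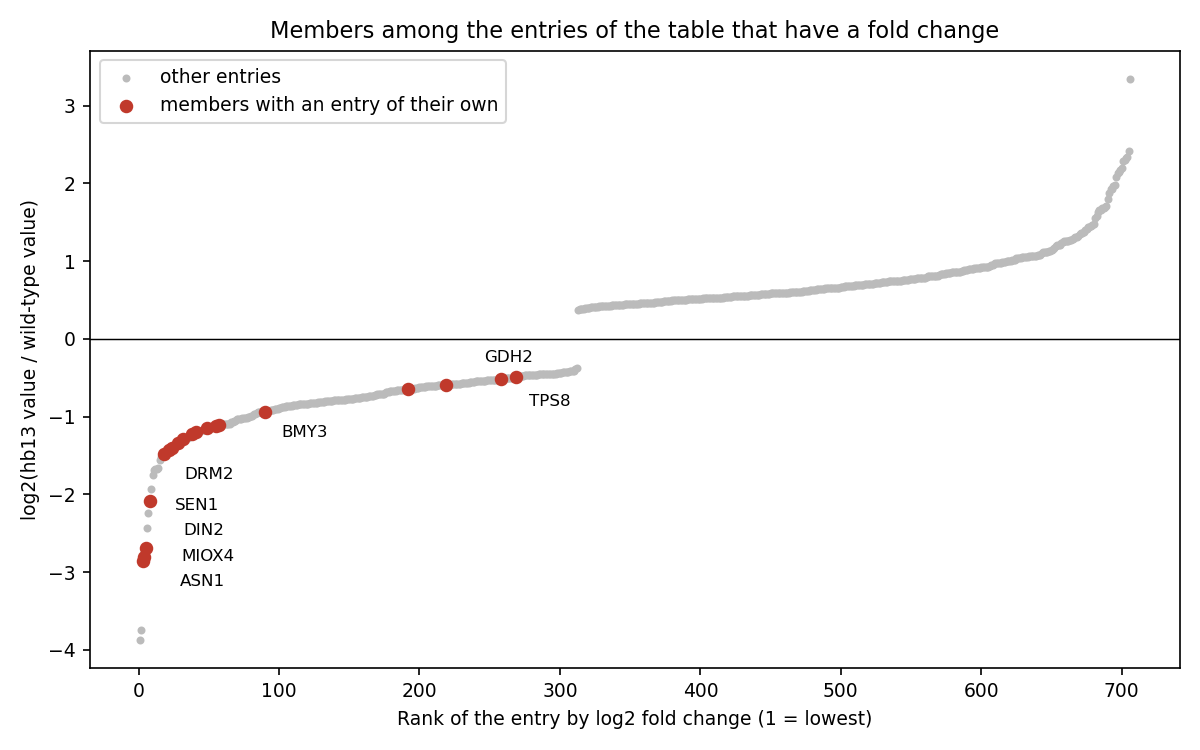
Log2 ratio of the hb13 value over the wild-type value (vertical axis) against the rank of each of the 706 entries with a ratio (horizontal axis), with the 19 members in red and other entries in grey. All members lie below 0, from -2.85 for ASN1 to -0.49 for TPS8, with 4 of them among the 10 lowest entries.

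The regions before the transcription starts of 5 members are printed here as examples of the motif matches that the promoter comparison counts. Other members with matches are not printed. Each is the 250 bases before the annotated gene start, read in the direction of transcription from the RefSeq assembly TAIR10.1, whose nuclear chromosomes are those of TAIR10. The ASN1 window is chr3:17441432-17441681 on the minus strand and runs over the coding exon of a short predicted gene on the other strand, AT3G47341. The MIOX4 window is chr4:13297445-13297694 on the plus strand. The AT3G15450 window is chr3:5212734-5212983 on the plus strand. The DRM2 window is chr2:14310609-14310858 on the minus strand, and the ERD5 window is chr3:12451557-12451806 on the minus strand. Capitals mark matches, on either strand, to any of the 5 motifs searched, which are described after the expression values.
ASN1: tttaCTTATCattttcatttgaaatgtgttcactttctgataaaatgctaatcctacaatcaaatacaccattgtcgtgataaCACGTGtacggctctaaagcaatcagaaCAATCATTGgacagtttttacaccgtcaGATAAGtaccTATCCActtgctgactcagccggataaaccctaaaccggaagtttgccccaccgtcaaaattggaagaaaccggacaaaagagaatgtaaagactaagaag
MIOX4: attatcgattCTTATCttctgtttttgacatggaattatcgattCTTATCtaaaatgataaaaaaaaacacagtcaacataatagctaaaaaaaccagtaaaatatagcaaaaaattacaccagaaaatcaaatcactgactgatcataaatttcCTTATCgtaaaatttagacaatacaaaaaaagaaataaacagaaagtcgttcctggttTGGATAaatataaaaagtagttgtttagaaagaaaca
AT3G15450: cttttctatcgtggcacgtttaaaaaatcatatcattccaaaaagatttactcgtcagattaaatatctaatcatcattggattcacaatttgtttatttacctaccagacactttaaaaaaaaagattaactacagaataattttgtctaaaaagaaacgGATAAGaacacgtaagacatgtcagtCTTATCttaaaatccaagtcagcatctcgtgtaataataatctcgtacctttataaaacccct
DRM2: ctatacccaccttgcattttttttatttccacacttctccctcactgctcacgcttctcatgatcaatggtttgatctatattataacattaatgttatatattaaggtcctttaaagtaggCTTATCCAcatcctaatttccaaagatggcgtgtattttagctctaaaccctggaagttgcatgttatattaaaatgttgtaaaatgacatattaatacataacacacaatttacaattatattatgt
ERD5: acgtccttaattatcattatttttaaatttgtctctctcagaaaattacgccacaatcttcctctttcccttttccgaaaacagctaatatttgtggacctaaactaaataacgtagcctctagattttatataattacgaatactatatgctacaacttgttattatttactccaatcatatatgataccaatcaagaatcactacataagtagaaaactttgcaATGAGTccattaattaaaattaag

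The nitrogen genes were ASN1 and GDH2, and their ratios lay far apart. ASN1 (AT3G47340, also DIN6) encodes the glutamine-dependent asparagine synthetase that is induced in the dark. In the authors' deposited table it had 5.86 in hb13 roots and 42.4 in wild-type roots, so the mutant value was 13.8% of wild type. This was the lowest ratio among the 19 members, a log2 ratio of -2.85 with a q-value of 0.00246. GDH2 (AT5G07440) encodes the beta subunit of glutamate dehydrogenase, which frees ammonium from glutamate and returns the carbon skeleton to respiration. The authors' deposited table gave GDH2 413 in hb13 roots and 590.1 in wild-type roots, a log2 ratio of -0.51 with a q-value of 0.00462. GDH2 thus kept 70.0% of its wild-type value. The related asparagine synthetases ASN2 and ASN3 and the glutamate dehydrogenases GDH1 and GDH3 were no entries.

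For the branched-chain amino acids, 3 genes of the mitochondrial leucine route were lower. BCE2 (AT3G06850, also DIN3) encodes the acyltransferase subunit of the branched-chain keto acid dehydrogenase complex, which all of the branched-chain amino acids pass through. Its values in the authors' deposited table were 9.63 in hb13 roots and 23.5 in wild-type roots, or 41.0% of wild type (log2 ratio -1.28). IVD (AT3G45300), isovaleryl-CoA dehydrogenase, acts on the leucine product of that complex. The authors' deposited table listed IVD at 12.9 in hb13 roots and 19.4 in wild-type roots, or 66.4% of wild type (log2 ratio -0.59). MCCA (AT1G03090) is the biotin-carrying subunit of methylcrotonoyl-CoA carboxylase, which takes over after IVD. For MCCA the authors' deposited table gave 7.11 in hb13 roots and 16.6 in wild-type roots, or 42.9% of wild type (log2 ratio -1.22). The authors' deposited table gave all 3 genes the q-value 0.00246. Without an error on these values it cannot be said whether IVD differed from the other 2 in the size of its change. The members with no entry include the transaminase BCAT-2 (AT1G10070), the keto acid dehydrogenase subunits DIN4 (AT3G13450) and AT1G21400, and ETFQO (AT2G43400), which passes electrons from IVD to ubiquinone.

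Proline and tyrosine breakdown had 1 member each among the entries. ERD5 (AT3G30775) encodes proline dehydrogenase, the first enzyme of proline oxidation in mitochondria. The authors' deposited table listed ERD5 at 177 in hb13 roots and 390.1 in wild-type roots, or 45.2% of wild type, a log2 ratio of -1.14 with a q-value of 0.00246. TAT7 (AT5G53970) is a tyrosine aminotransferase. It had 4.56 in hb13 roots and 7.13 in wild-type roots in the authors' deposited table, or 64.0% of wild type, and a log2 ratio of -0.64. Its q-value of 0.0180 was the largest of the 19. The threonine aldolase THA1 (AT1G08630), the member for threonine breakdown, was no entry.

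The dark-inducible and dormancy genes formed the largest group, with 6 members in the table, and all 6 were below 50% of wild type in hb13. SEN1 (AT4G35770, also DIN1), a marker of senescence and darkness, had 2.68 in hb13 roots and 11.4 in wild-type roots in the authors' deposited table, or 23.5% of wild type. DIN2 (AT3G60140), a beta-glucosidase of glycoside hydrolase family 1 that is repressed by sugar in leaves, had 0.472 in hb13 roots and 3.05 in wild-type roots in the authors' deposited table, or 15.5% of wild type. DIN10 (AT5G20250), a raffinose synthase-like protein, had 159 in hb13 roots and 366 in wild-type roots in the authors' deposited table, or 43.4% of wild type. These log2 ratios were -2.09 for SEN1, -2.69 for DIN2 and -1.20 for DIN10. The paired dormancy-associated genes DYL1 (AT1G28330) and DRM2 (AT2G33830) encode short related proteins that accumulate in resting buds and under sugar shortage. DYL1 had 60.7 in hb13 roots and 132 in wild-type roots in the authors' deposited table, a log2 ratio of -1.12. DRM2 had 44.0 in hb13 roots and 123 in wild-type roots in the authors' deposited table, a log2 ratio of -1.48. AT3G15450, which has no symbol in RefSeq, was listed at 205 in hb13 roots and 546 in wild-type roots in the authors' deposited table, or 37.6% of wild type (log2 ratio -1.41). All 6 genes had the smallest q-value, 0.00246, in the authors' deposited table.

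Among the genes of sugar and inositol metabolism, the myo-inositol oxygenases MIOX2 and MIOX4 were both lower. These enzymes open the ring of myo-inositol to give glucuronate, which can be used for cell walls or burned. MIOX4 (AT4G26260) had 0.547 in hb13 roots and 3.83 in wild-type roots in the authors' deposited table, or 14.3% of wild type (log2 ratio -2.81). MIOX2 (AT2G19800) had 55.5 in hb13 roots and 149 in wild-type roots in the authors' deposited table, or 37.2% of wild type (log2 ratio -1.43). BMY3 (AT5G18670), a member of the beta-amylase family also called BAM9, had 36.7 in hb13 roots and 70.4 in wild-type roots in the authors' deposited table, or 52.1% of wild type (log2 ratio -0.94). The authors' deposited table gave these 3 genes the same q-value, 0.00246. TPS8 (AT1G70290) encodes a trehalose-phosphate synthase-like protein in which no synthase activity has been found. In the authors' deposited table TPS8 had 22.3 in hb13 roots and 31.4 in wild-type roots, or 71.0% of wild type, with a log2 ratio of -0.49 and a q-value of 0.00804. It was the mildest of the 19 ratios. TPS9 (AT1G23870), a related protein, shares its row with AT1G23880, the protein-coding gene that begins at the next base of the annotation. In the authors' deposited table that row had 39.6 in hb13 roots and 56.3 in wild-type roots, or 70.2% of wild type, with a log2 ratio of -0.51 and a q-value of 0.00645. Which of the 2 genes this row reflects cannot be told apart, so it is left out of the counts and medians of the 19. The related members TPS10 (AT1G60140) and TPS11 (AT2G18700) were no entries.

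The last 2 members with an entry of their own act in protein turnover. KFB20 (AT1G80440, also KMD1) is an F-box protein that targets phenylalanine ammonia-lyase and type-B cytokinin response regulators for degradation. It had 1.74 in hb13 roots and 4.40 in wild-type roots in the authors' deposited table, or 39.5% of wild type (log2 ratio -1.34). RZPF34 (AT5G22920), a RING zinc-finger protein, had 48.6 in hb13 roots and 105 in wild-type roots in the authors' deposited table, or 46.5% of wild type (log2 ratio -1.11). The authors' deposited table gave the pair the q-value 0.00246. The remaining members without an entry were the transcription factor bZIP1 (AT5G49450), the RING protein ATL8 (AT1G76410), the beta-galactosidase BGAL4 (AT5G56870), PP2-A13 (AT3G61060), an F-box protein with a phloem lectin domain, and GDH1 (AT5G18170), the alpha subunit of glutamate dehydrogenase.

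**Figure D2:**
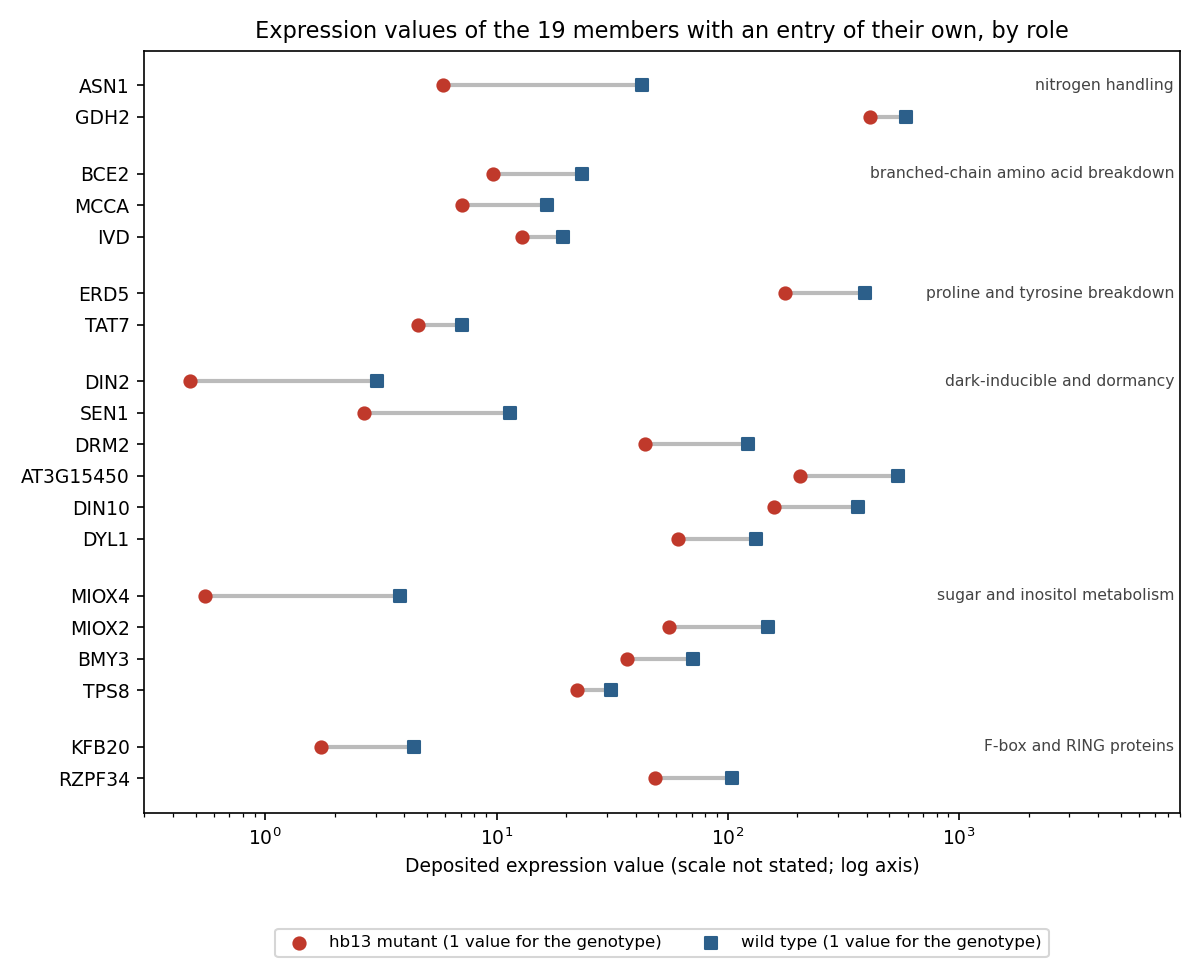
Deposited expression values of the 19 members (horizontal log axis, scale not stated), grouped by role, with a red circle for hb13 and a blue square for wild type; each point is the authors' single value for the genotype, so there are no error bars. The hb13 point lies left of the wild-type point in every row, with the widest gaps for ASN1, MIOX4 and DIN2, and DIN2 and MIOX4 are the 2 members under 1 in hb13.

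The members spanned a wide range of ratios. In hb13, 4 members were under 25% of wild type (ASN1, MIOX4, DIN2 and SEN1), 4 lay between 30% and 40%, 6 between 40% and 50%, and 5 above 50% (BMY3, TAT7, IVD, GDH2 and TPS8). The 2 ratios that rest on a value under 1 are those of DIN2 and MIOX4. With a pseudocount of 1 added to both values, their log2 ratios were -1.46 and -1.64, while that of ASN1 was -2.66.

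Related genes could share reads, so their sequences were compared. The coding sequences of MIOX2 and MIOX4 were identical at 71.3% of aligned bases, and the longest stretch that their transcripts had in common was 19 bases. For DYL1 and DRM2 the identity was 75.9% and the longest common stretch was again 19 bases. MIOX4 was nearer to MIOX5, which was no entry, with 81.4% identity and 38 bases. Of the 4 related genes compared with TPS8, TPS9 was the nearest, with 81.0% identity and 32 bases, and GDH2 shared at most 41 bases with GDH1. All of these stretches are shorter than the reads of 100 bases. None of the 100-base stretches inside an exon of the 19 members, from 555 stretches in IVD to 2953 in TPS8, occurred elsewhere on the nuclear chromosomes. Genes on the opposite strand overlapped exons of 6 members, ASN1, AT3G15450, DIN10, BCE2, BMY3 and MCCA, by between 0.401% and 10.9% of exon length, the most in MCCA with AT1G03100. None of those neighbours was an entry of the table.

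The other genes of these pathways were followed through 13 lists that together hold 116 genes, of which 84 are no members. These lists, too, were chosen with earlier results of this table known. Of the 84, 5 were entries and all 5 were lower in hb13, beside 44.4% of all entries, while 79 had no value. Among the 27437 protein-coding genes whose promoters were searched, 684 had entries of their own. Nothing is read from these shares. AT5G38710, a second proline dehydrogenase gene, had 4.11 in hb13 roots and 7.27 in wild-type roots in the authors' deposited table (log2 ratio -0.82). MGL (AT1G64660), a methionine gamma-lyase, had 4.17 in hb13 roots and 7.75 in wild-type roots in the authors' deposited table (log2 ratio -0.90). ATTPS6 (AT1G68020), another trehalose-phosphate synthase-like gene, had 2.66 in hb13 roots and 4.47 in wild-type roots in the authors' deposited table (log2 ratio -0.75). The remaining pair are regulators. KIN11 (AT3G29160), a catalytic subunit of SnRK1, had 26.3 in hb13 roots and 37.3 in wild-type roots in the authors' deposited table (log2 ratio -0.51, q-value 0.00804). BZO2H3 (AT5G28770, also bZIP63), a bZIP factor that SnRK1 phosphorylates, had 28.1 in hb13 roots and 46.2 in wild-type roots in the authors' deposited table (log2 ratio -0.72). The q-value was 0.00246 for AT5G38710, MGL, ATTPS6 and BZO2H3 in the authors' deposited table.

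By list, 11 of 19 sugar-starvation markers, 3 of 20 branched-chain breakdown genes and 2 of 6 proline genes had entries of their own. So did 2 of 13 other amino acid breakdown genes, 2 of 11 trehalose-phosphate synthase and synthase-like genes and 2 of 4 myo-inositol oxygenases. All of these entries were lower in hb13, beside 44.4% of all entries. The row that TPS9 shares with AT1G23880, also lower, would make 3 of 11 trehalose-phosphate synthase and synthase-like genes. Asparagine synthetases and glutamate dehydrogenases each had 1 entry of 3. SnRK1 subunits had 1 of 7, and bZIP factors of the groups that work with SnRK1 had 1 of 9. For scale, 684 of the 27437 protein-coding genes whose promoters were searched had entries of their own. The lists were chosen with earlier results known, so nothing is read from these counts. All 11 listed sugar-starvation markers are members, so their median log2 ratio of -1.34 describes how they were picked. The median was 0.45 over all entries and -0.76 over the lower entries with a ratio. There was no entry among 11 trehalose-phosphate phosphatase and trehalase genes, 9 ATG8 genes of autophagy or 6 genes known to be induced by sugar. Few genes of any kind have an entry, so lists of this size can hold none. Whether these genes changed is unknown. In the list of breakdown enzymes for branched-chain amino acids, the 17 genes with no entry include the partner subunit of MCCA, MCCB, and the electron-transfer flavoprotein genes.

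**Figure D3:**
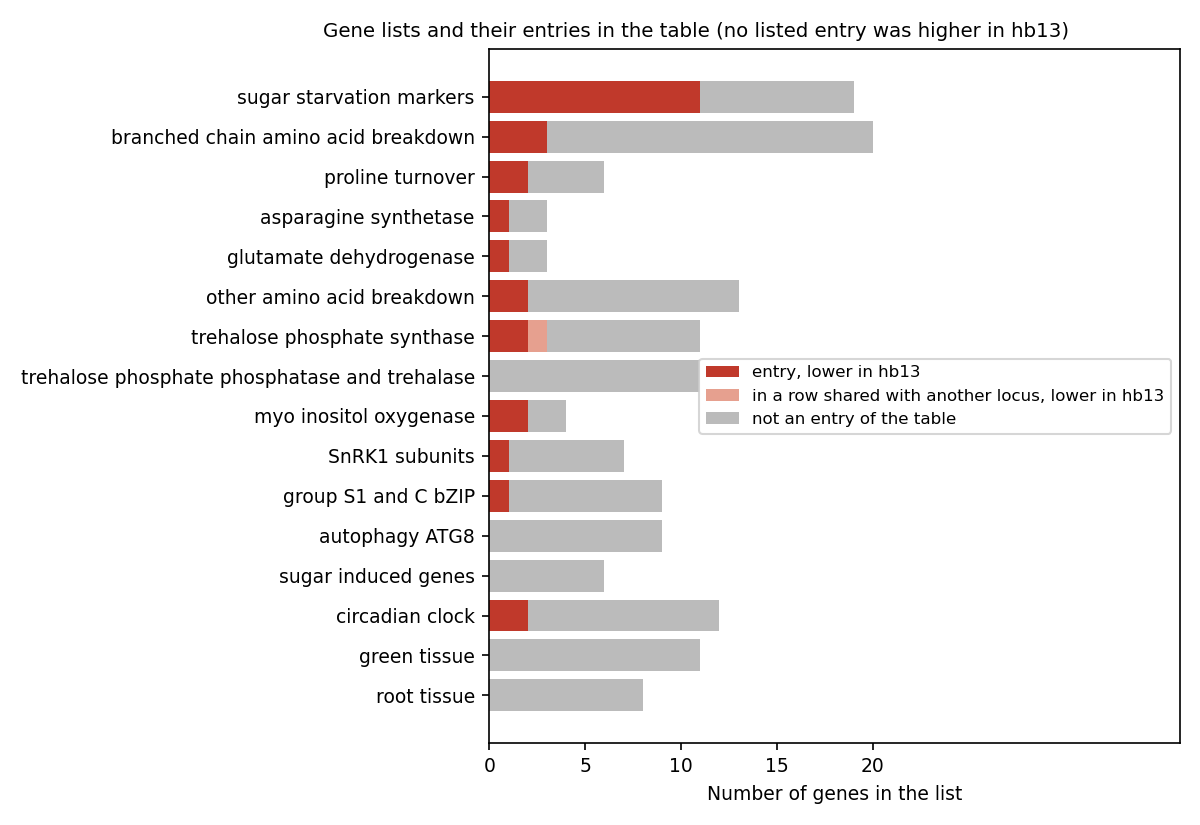
Number of genes per list (horizontal axis), split into entries that were lower in hb13 (red), a gene in a lower row shared with another locus (light red) and genes that were no entry of the table (grey). Red covers 11 of 19 sugar-starvation markers and at most 3 genes of any other list. No list had an entry that was higher in hb13, where 44.4% of all 708 entries were lower.

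Markers of other influences were read from the same table. Of 12 circadian clock genes, 2 were entries, both lower in hb13, beside 44.4% of all entries. CCA1 (AT2G46830), a morning clock gene, had 2.19 in hb13 roots and 4.76 in wild-type roots in the authors' deposited table (log2 ratio -1.12, q-value 0.00246). GI (AT1G22770), which peaks later in the day, had 12.6 in hb13 roots and 18.2 in wild-type roots in the authors' deposited table (log2 ratio -0.54, q-value 0.00246). Many starvation genes follow the time of day, the hour of harvest is not in the labels, and its part in the values of the members was not tested. None of the 11 photosynthesis genes used as markers of green tissue and none of the 8 root cell type genes was an entry, so their levels are unknown and the labelled tissue could not be checked on them.

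The promoter windows were searched for 5 motifs on both strands. The G-box (CACGTG) and the proline element (ACTCAT) are bound by bZIP factors. The sugar-starvation element (TATCCA) is known from starvation-induced amylase genes of rice, the I-box (GATAAG) from light-regulated plant promoters, and CAATNATTG is the palindrome that HD-ZIP proteins bind in vitro. The I-box was the most frequent. It occurred in 8 of the 19 members with an entry of their own (42.1%) and in 4 of the 12 members with no entry (33.3%). By comparison, 19.3% of the 306 windows of single-locus entries lower in hb13 and 12.3% of 27437 windows of all protein-coding genes held it. The carriers in the table were ASN1, MIOX4, AT3G15450, SEN1, BCE2, TPS8, DRM2 and DYL1, and 5 of them held more than 1 copy. As with ASN1, the windows of SEN1 and DYL1 run over exons of other genes, AT4G35760 and AT1G09025. In the printed windows the I-box reads GATAAG or, on the other strand, CTTATC. MIOX4 has 3 copies, at 240, 206 and 95 bases before the start, and AT3G15450 has 2, at 89 and 63.

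Among the members with an entry of their own, 5 of 19 held the sugar-starvation element (26.3%), namely ASN1, MIOX4, BMY3, KFB20 and DRM2. The same motif was found in 4 of the 12 members with no entry (33.3%), in 22.5% of windows of lower entries and in 13.6% of all windows. In DRM2 it overlaps the I-box in a single run, 126 bases before the start, the only overlap between motifs in the 19 windows. G-boxes were found in 2 of 19 windows (10.5%), those of ASN1 and BMY3, beside 10.8% of windows of lower entries and 6.49% of all windows. Of the 12 members with no entry, 2 held a G-box (16.7%). The proline element was in 2 of 19 (10.5%), beside 17.0% of windows of lower entries and 12.3% of all windows. Its carriers were DYL1 and ERD5, where it lies 24 bases before the start. The HD-ZIP palindrome occurred in 1 of the 19 windows, that of ASN1, 139 bases before the start (5.26%). It was also in 1 of the 12 members with no entry, DIN4 (8.33%). The share was 1.31% in windows of lower entries and 0.918% in all windows. ASN1 was also the member with the most kinds of motif, 4 of the 5, while 8 of the 19 members held none. The TPS9 window held none of the 5 either. A match says only that the letters are present, and no binding was measured here.

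**Figure D4:**
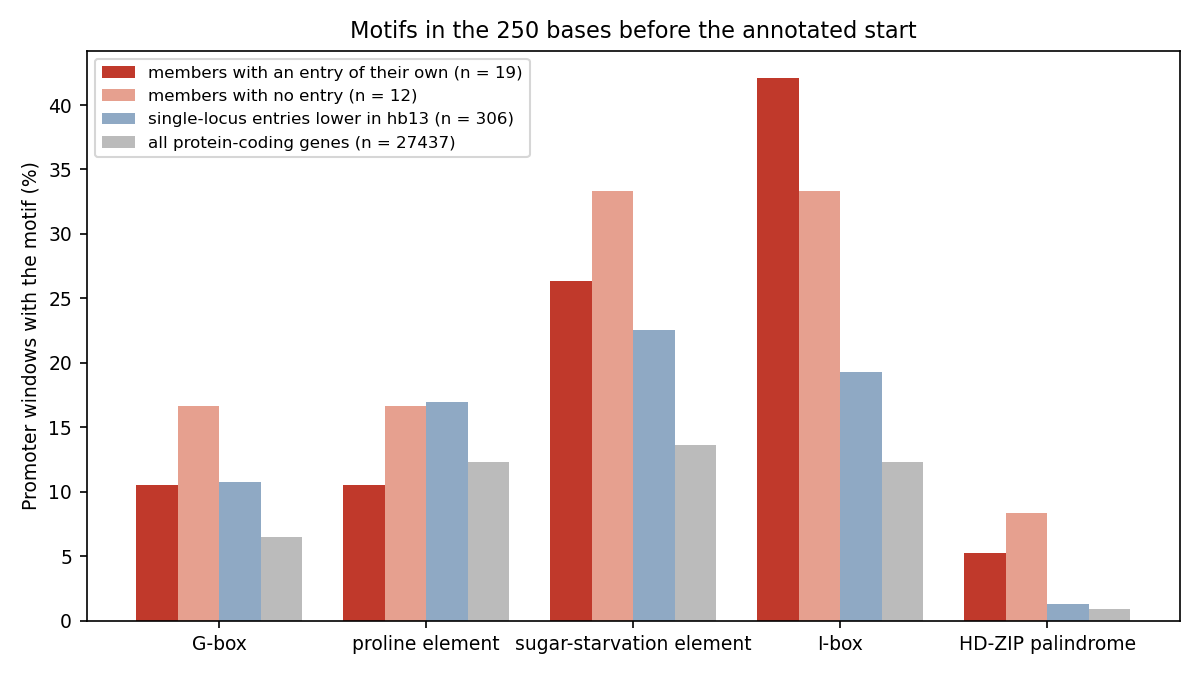
Share of promoter windows of 250 bases that hold each motif on either strand (vertical axis, percent), for members with an entry of their own, members with no entry, single-locus entries lower in hb13 and all protein-coding genes. The I-box bar of the members with an entry of their own stands at 42.1%, against 12.3% for all protein-coding genes, while the proline element is at 10.5% and 12.3%.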

How the data were processed

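Per the labels' protocols, poly(A) RNA was made into directional libraries and sequenced as single-end reads of 100 bases. TopHat2 2.0.13, Cufflinks 2.1.1, Cuffdiff and the build TAIR10 are listed in the submitters' processing notes, with no role or order. Counting, scaling, test and adjustment are not given in the sources used here. The deposited table holds an expression signal per genotype, a q-value and a log2 fold change, which equalled the log2 ratio of the deposited values to within 1.02e-05. The planned limma fit needs values per library, which were not analysed here, so members are described without a test. All members with an entry of their own, all entries of the gene lists and the row that TPS9 shares with another locus are named. Of the entries, 5 name 2 loci, and no other gene of the members or lists is in one of them. The members and lists were chosen with earlier results of these data known. Symbols, positions and sequences came from RefSeq TAIR10.1, and all loci matched. Genes within families were compared by global alignment of coding sequences in place of proteins. The motif search was tested on simulated sequences. Python 3.11.15, pandas 2.3.3, NumPy 2.4.6, Biopython 1.88 and matplotlib 3.10.9 were used.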

Additional observations from a re-analysis of the deposited data

How the results depend on the processing

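No paired analysis was possible because each genotype has a single value per gene, with no column for a library, and the replicate numbers in the titles could not be used. Leaving out replicates in turn and fitting counts could not be done either. The number of members lower in hb13 was 19, beside 44.4% of all entries, and it was 18 at a q-value under 0.01. It was 14 at an absolute log2 ratio of at least 1, beside 11.4% of all entries at or below 50% of wild type. It was 16 at a mean of the 2 values of at least 5. Relative to the median of all entries it was 19, where by definition about 50% of entries with a ratio are lower. Shares of all entries were not computed for the q-value and mean thresholds. The thresholds only drop members and the shift lowers every ratio, so no direction could reverse, and nothing is read from these counts. The median log2 ratio of the members was -1.22. Under the alternatives it lay between -1.67 (relative to the median of all entries, which shifts every ratio by 0.45) and -1.14 (pseudocount of 1). A pseudocount of 0.1, a count that includes the row shared by TPS9, and a promoter window of 500 bases were added after the data were seen. The pseudocount gave -1.21. The shared row gave 20 lower and a median of -1.21. With the longer window, the I-box was in 57.9% of the 19 members and 22.5% of all windows. No motif changed the sign of the difference between the 19 members and all windows. Of the single ratios, 2 moved by more than 1.5 times with a pseudocount of 1, those of DIN2 and MIOX4, to -1.46 and -1.64.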
